A study of Mus musculus with 2 samples.

Results

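Adrenergic receptors and the genes of the cAMP pathway that they act on were examined in MCMs, mouse cardiomyocytes bought as cultured cells and passaged, with and without knockdown of *Ppp2r5d*, which encodes a B56-type regulatory subunit (δ) of the phosphatase PP2A. The group holds 47 genes in 10 roles, from adrenoceptors and their kinases and arrestins to G protein α subunits, adenylate cyclases, subunits of protein kinase A (PKA), PKA anchoring proteins, phosphodiesterases, EPAC proteins and the CREB family. Its members were found as the probes, other than control probes, whose gene name in the scanner files is that of a member. This gave 117 probes for 47 of the 37074 gene names on the array. The labels and methods give 2 conditions, each with 1 sample on 1 array. Cells were grown in DMEM with FBS and transfected through Lipofectamine RNAiMAX, and their RNA was hybridized as Cyanine 3-labelled cRNA. Whether a sample came from 1 culture or a pool is not stated, and it is called a culture below. The methods name a t-test for differential expression, for which 1 array per condition gives no replicates. The siRNA-NC culture received a negative control siRNA and the siRNA-*Ppp2r5d* culture an siRNA against *Ppp2r5d*. Both cultures were moved to medium without glucose at 48 h and RNA was collected at 64 h after transfection. No adrenergic agonist is named for either culture, so the values below are those of cells without a stated ISO treatment.

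Catecholamines bind adrenoceptors on the cell surface. β-adrenoceptors couple to Gs, which activates adenylate cyclase to make cAMP, whereas α2-adrenoceptors couple to Gi, which inhibits it, and α1-adrenoceptors couple mainly to Gq. cAMP activates PKA and EPAC, anchoring proteins hold PKA near its substrates, phosphodiesterases degrade cAMP, and PKA phosphorylates the transcription factors of the CREB family. In the heart this pathway raises the rate and force of contraction, and receptor kinases and arrestins switch the receptors off after stimulation.

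The targeted gene *Ppp2r5d* had intensities of 4701 with siRNA-NC and 676 with siRNA-*Ppp2r5d*, and its log2 fold change was -2.61. Fold changes are of siRNA-*Ppp2r5d* over siRNA-NC, after the 75th percentile of each array was taken as its unit, so an intensity that stayed equal corresponds to a log2 fold change above 0. These percentiles were intensities of 592 and 518. Of the 20 cardiomyocyte markers, 15 were detected, that is well above background on 1 array or both, *Myl2*, *Myl7*, *Actn2*, *Pln* and *Ckm* on neither, so that several defining markers of the labelled cell type were not detected. *Myh6* and *Ryr2* were well above background on the siRNA-*Ppp2r5d* array alone. The summed intensity of the cardiomyocyte markers was 10984 with siRNA-NC and 9330 with siRNA-*Ppp2r5d*, of which *Actc1* made up 6443 and 5268. The 13 cardiomyocyte markers measured on both arrays had a median log2 fold change of 0.42, with 10 above 0 and 3 below, or 8 and 5 with scaling to spike-in probes. The highest was *Csrp3* with 1.93 and the lowest *Cox6a2* with -0.71. Several of these markers were dim, such as *Nppa* with intensities of 16.6 and 22.4 and *Nppb* with 17.1 and 23.9. Under a stricter filter on dim probes the median of the cardiomyocyte markers was 0.23, with 8 above 0 and 3 below. Without a filter it was 0.14, with 15 above 0 and 5 below. Fibroblast markers had sums of 342891 and 328580, of which *S100a4* made up 235200 and 223260, with 11 of 13 well above background. These 11 had a median log2 fold change of 0.12, with 6 above 0 and 5 below, or 3 and 8 with scaling to spike-in probes. The median was 0 with quantile normalization, with 5 above and 5 below, and -0.092 with cyclic loess, with 5 and 6. With the brightest probe of each gene, 10 were above 0 and 1 below. They ran from -0.31 for *Col1a2* to 1.08 for *Lum*. Leukocyte markers had sums of 7188 and 5754, with 5 of the 6 on the array well above background. Of these, *Cd68* had a log2 fold change of -0.77, *Lyz2* of -0.68, *Csf1r* of -0.065, *Itgam* of 0.034 and *Ptprc* of 0.13. Smooth muscle markers had sums of 15744 and 20239, and the 6 measured had a median log2 fold change of -0.067. *Cnn1*, with 2.41, and *Tagln*, with 0.85, were above 0, and the other 4 ran from -0.42 for *Des* to -0.021 for *Acta2*, a split of 2 and 4 that was 3 and 3 with scaling to detected probes. Endothelial markers had sums of 64.0 and 60.1, with 2 of 7 well above background. The part of these cell type markers in the results below was not tested, and in bulk RNA fewer cells of a type and less RNA per cell cannot be told apart.

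Of the 47 genes, 36 exceeded background clearly on both arrays, *Adcy3* did so on the siRNA-NC array alone, and 10 did so on neither. The 36 genes had a median log2 fold change of -0.028, with quartiles of -0.13 and 0.11, and 16 of them were above 0 and 20 below, a split that was 5 and 31 when the arrays were scaled to spike-in probes and ran from 14 and 22 to 19 and 17 under the other normalizations and background correction. Spike-in scaling shifted the all-gene median from 0.025 to -0.19, so the signs of small values depend on it. All 20311 genes measured on both arrays had a median of 0.025, with quartiles of -0.16 and 0.18. Of these genes 10962 were above 0 and 9349, or 46.0%, below, beside 55.6% of the members. None of the members was changed 2-fold, the fold threshold in the methods, with *Pde4a* short of it by 0.00103 on the log2 scale. Of the 21638 genes detected on either array 2.44% were, a share at which a list of this size would hold few. At 1.5-fold, 5 of the 37 members were changed, or 13.5%, where the share over all genes was 9.17%. *Adra1b*, *Adrb1*, *Arrb1* and *Pde4a* were lower past this threshold, a direction that 5.39% of all genes took, and *Prkx* was higher, as were 3.79% of all genes. With 1 array per condition no test was possible, so none of these differences has a replicate check and the counts are a description of these arrays.

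**Figure D1:**
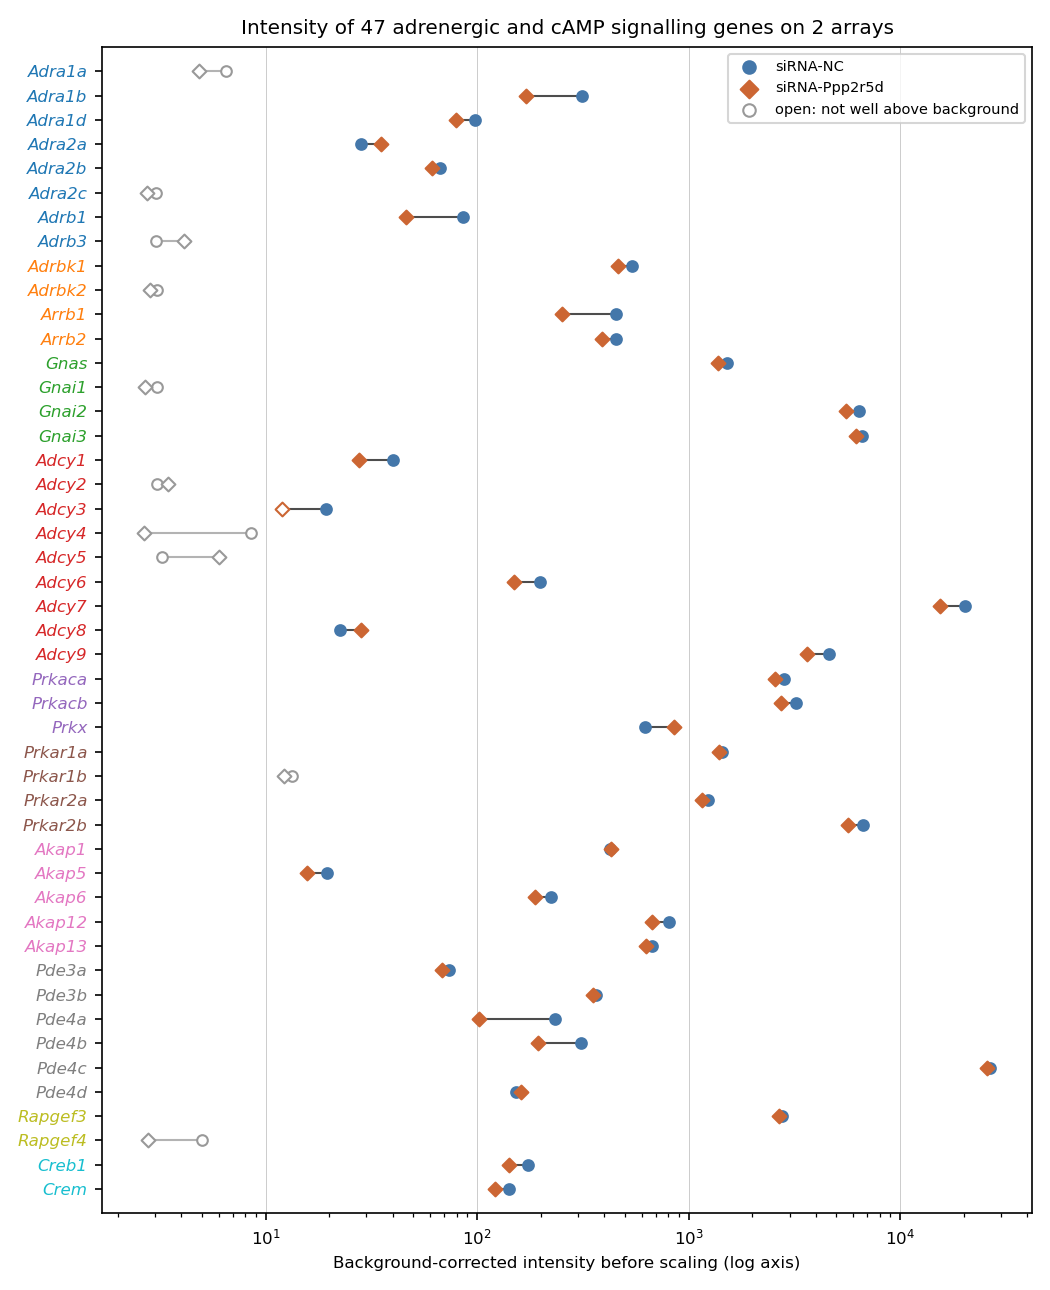
Background-corrected intensity (log axis) of each of the 47 genes with siRNA-NC (circles) and siRNA-*Ppp2r5d* (diamonds), 1 array each and before scaling, as the geometric mean over the probes of the gene that were used. Genes well above background on neither array are shown by the brightest probe of each array, which need not be the same probe. Gene names are coloured by role and open symbols were not well above background. For the other genes, levels can be read across the arrays within a gene but not between genes. *Pde4a*, *Adra1b*, *Adrb1* and *Arrb1* have the diamond well to the left of the circle, and *Prkx* has it to the right.

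The probes of the 5 genes past 1.5-fold are shown because the value of each gene rests on what these 60 bases bind. Coordinates are those of the scanner files in build mm9. Which exon or untranslated region a probe lies in was not analysed here. *Adra1b*, *Adrb1* and *Arrb1* have 1 probe each, at chr11:43588814-43588873 on the minus strand, chr19:56799215-56799274 on the plus strand and chr7:106755171-106755230 on the plus strand.
Adra1b: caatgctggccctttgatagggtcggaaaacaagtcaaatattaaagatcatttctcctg
Adrb1: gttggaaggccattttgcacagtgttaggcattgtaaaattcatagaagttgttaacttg
Arrb1: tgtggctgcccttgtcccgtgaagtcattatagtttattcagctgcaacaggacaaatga

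*Pde4a* has 3 probes on the plus strand. The probe at chr9:20997447-20997506 is tied by the scanner files to an Ensembl transcript and cDNA clones, and the others, at chr9:21015961-21016020 and chr9:21017591-21017650, to the RefSeq transcripts of the gene.
Pde4a probe A: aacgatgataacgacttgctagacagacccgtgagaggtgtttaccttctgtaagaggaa
Pde4a probe B: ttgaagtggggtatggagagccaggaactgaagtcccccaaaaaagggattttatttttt
Pde4a probe C: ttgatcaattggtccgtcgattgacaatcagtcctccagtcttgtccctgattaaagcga

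*Prkx* has 3 probes on the minus strand, at chrX:75006660-75006719, chrX:75007688-75007747 and chrX:75016939-75016998. In this order, they are tied to predicted RefSeq transcripts, to the curated RefSeq transcript and to cDNA clones alone.
Prkx probe A: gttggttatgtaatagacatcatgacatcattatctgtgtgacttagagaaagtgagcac
Prkx probe B: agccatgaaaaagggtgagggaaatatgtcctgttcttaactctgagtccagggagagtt
Prkx probe C: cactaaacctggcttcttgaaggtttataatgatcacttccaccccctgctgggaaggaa

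Among the adrenoceptors, *Adrb1* and *Adra1b* were lower with siRNA-*Ppp2r5d*. *Adrb1*, the β1-adrenoceptor through which catecholamines act on cardiomyocytes, had an intensity of 85.9 with siRNA-NC and 45.9 with siRNA-*Ppp2r5d*, a log2 fold change of -0.71 or 1.64-fold lower. *Adra1b*, a Gq-coupled α1 receptor, had 315 and 171, a log2 fold change of -0.69 or 1.61-fold lower. The siRNA-*Ppp2r5d* array was the lower of the arrays for both receptors. Of the 20311 genes measured on both arrays, 603, or 2.97%, were further below 0 than *Adrb1* and 656, or 3.23%, further than *Adra1b*. *Adrb1* belongs to the intensity class from 32 to 128, in which 14.3% of genes were past 1.5-fold, and *Adra1b* to the class from 128 to 512, in which 7.41% were. The share past 1.5-fold was 16.3% below an intensity of 32 and 2.32% from 2048 upwards. Each of these receptors rests on 1 probe with 1 spot, and after normexp background correction, with an offset of 50 added to every intensity, the log2 fold change was -0.26 for *Adrb1* and -0.48 for *Adra1b*.

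The other adrenoceptors were not past 1.5-fold. *Adra2a*, a Gi-coupled receptor, had intensities of 28.4 with siRNA-NC and 35.2 with siRNA-*Ppp2r5d*, a log2 fold change of 0.50. It was the adrenoceptor with the highest log2 fold change, at an intensity near the lowest signals well above background, which were 14.9 with siRNA-NC and 13.5 with siRNA-*Ppp2r5d*. *Adra2b*, also Gi-coupled, had 67.0 and 60.9, a log2 fold change of 0.054. *Adra1d*, another α1 receptor, had 97.5 and 79.8, a log2 fold change of -0.097 for the 1 probe measured out of 2. *Adra1a*, *Adra2c* and *Adrb3* were not well above background on either array. Their brightest probes had intensities of 6.48, 3.05 and 3.02 with siRNA-NC and of 4.86, 2.74 and 4.12 with siRNA-*Ppp2r5d*, so the arrays give no direction for them.

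Among the proteins that switch receptors off, *Arrb1* was lower and the others measured were near 0. *Arrb1* encodes β-arrestin 1, which binds phosphorylated receptors and uncouples them from G proteins. Its intensity was 455 with siRNA-NC and 253 with siRNA-*Ppp2r5d*, a log2 fold change of -0.65 or 1.57-fold lower, and 754 of 20311 genes were further below 0. *Arrb2*, which encodes β-arrestin 2, had 454 and 392 and a log2 fold change of -0.023 over 3 probes that ran from -0.085 to 0.059. *Adrbk1*, the receptor kinase now called *Grk2*, had -0.034, with its probes at -0.16 and 0.095. *Adrbk2*, now *Grk3*, was not well above background on either array. The difference between *Arrb1* and *Arrb2* is thus one of a single probe against 3 probes, and no test of it was possible.

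The G protein α subunits ran from -0.013 to 0.10, and all were below 0 with scaling to spike-in probes. *Gnas*, which encodes Gαs, had a log2 fold change of 0.038 over 7 probes from -0.14 to 0.13. Its brightest probe had an intensity of 91088 with siRNA-NC and 86287 with siRNA-*Ppp2r5d*, a log2 fold change of 0.11. *Gnas* is a complex locus with several first exons and overlapping transcripts, and probes of more than 1 transcript are averaged in this value. *Gnai3*, which encodes a Gαi subunit, was the highest of the group, with 6610 and 6209 and a log2 fold change of 0.10. *Gnai2*, another Gαi subunit, was the lowest, with 6406 and 5559 and a log2 fold change of -0.013. *Gnai1* was not well above background on either array. The order of the 3 measured subunits is not resolved by the spread between the probes of *Gnas*, whose SD was 0.11.

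Of the 9 adenylate cyclases, 4 of the 5 measured on both arrays had log2 fold changes below 0, of which *Adcy1* was above 0 without a filter on dim probes. *Adcy7* had an intensity of 20211 with siRNA-NC and 15463 with siRNA-*Ppp2r5d* and a log2 fold change of -0.19. *Adcy9* had 4588 and 3609 and a log2 fold change of -0.15. *Adcy6*, with *Adcy5* a main cyclase of cardiomyocytes, had -0.22 over 2 probes, at -0.20 for the probe with intensities of 1358 and 1036 and -0.23 for the dimmer one. These 3 genes were below 0 under each of the 10 alternative processing settings. *Adcy1*, a calmodulin-stimulated cyclase, was the lowest, with 40.0 and 27.8 and a log2 fold change of -0.33, against 0.19 without the filter. *Adcy3* was well above background with siRNA-NC alone, at 19.4 against 12.0, which gives a bound of at least 1.26-fold lower. This bound comes from 1 probe near the lowest signals well above background and does not settle a direction. On the log2 scale it was -0.33, or -0.27 with quantile normalization, and only 8 of the 10 alternatives gave a value. *Adcy8*, also calmodulin-stimulated, was the highest, with 22.6 and 28.4 and a log2 fold change of 0.52 from probes at 0.49 and 0.55. These intensities are near the lowest signals well above background. Without the filter a further probe at -0.60 entered, and the value was 0.15. *Adcy2*, *Adcy4* and *Adcy5* were not well above background on either array. No cyclase was past 1.5-fold.

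PKA is a tetramer of regulatory and catalytic subunits, and its main catalytic genes hardly differed between the arrays. *Prkaca* had a log2 fold change of 0.047, with its probes at 0.024 and 0.070. *Prkacb* was the lowest catalytic gene, with 3224 and 2727 and a log2 fold change of -0.050. *Prkx*, which encodes a kinase related to the PKA catalytic subunits, was higher with siRNA-*Ppp2r5d*, with a log2 fold change of 0.65 or 1.57-fold. The probe at chrX:75007688-75007747 had intensities of 2205 with siRNA-NC and 3488 with siRNA-*Ppp2r5d*, a log2 fold change of 0.85. The probe at chrX:75006660-75006719 had 580 and 920, a log2 fold change of 0.86. Both lie within a short stretch of the X chromosome and both were higher on the siRNA-*Ppp2r5d* array. The probe at chrX:75016939-75016998, which is tied to cDNA clones alone, had 185 and 193 and a log2 fold change of 0.25. The value of the gene therefore depends on which probes enter it, and 521 of 20311 genes, or 2.57%, were further above 0 than the mean of 0.65. It was 0.44 when the arrays were scaled to spike-in probes, below 1.5-fold.

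The regulatory subunits were not past 1.5-fold. *Prkar1a*, the RIα subunit, was the highest, with a log2 fold change of 0.14 over 3 probes that differed in direction. The probes with intensities of 25076 and 27135 and of 2456 and 2773 had log2 fold changes of 0.31 and 0.37, while a dim probe with 48.8 and 36.1, tied to an Ensembl transcript alone, had -0.24. *Prkar2a*, the RIIα subunit, had 0.094, with its 3 probes from 0.065 to 0.13. *Prkar2b*, the RIIβ subunit, was the lowest, with 6645 and 5644 and a log2 fold change of -0.044. *Prkar1b* was not well above background on either array, with 13.4 and 12.3 for its brightest probe.

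The 5 anchoring proteins, which tether PKA at sites in the cell, ran from -0.12 to 0.22. *Akap1*, which anchors PKA at mitochondria, was the highest, with intensities of 423 and 431 and probes at 0.21 and 0.22. *Akap5*, at the plasma membrane, was the lowest, with 19.4 and 15.7 and a log2 fold change of -0.12, close to background. *Akap6*, at the nuclear envelope of muscle cells, had -0.066 over 3 probes. *Akap12*, also called gravin, had 811 and 674 and -0.075. *Akap13* had 0.10 over 4 probes that ran from -0.065 to 0.23. For *Akap6* and *Akap13* the probes lay on both sides of 0.

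**Figure D2:**
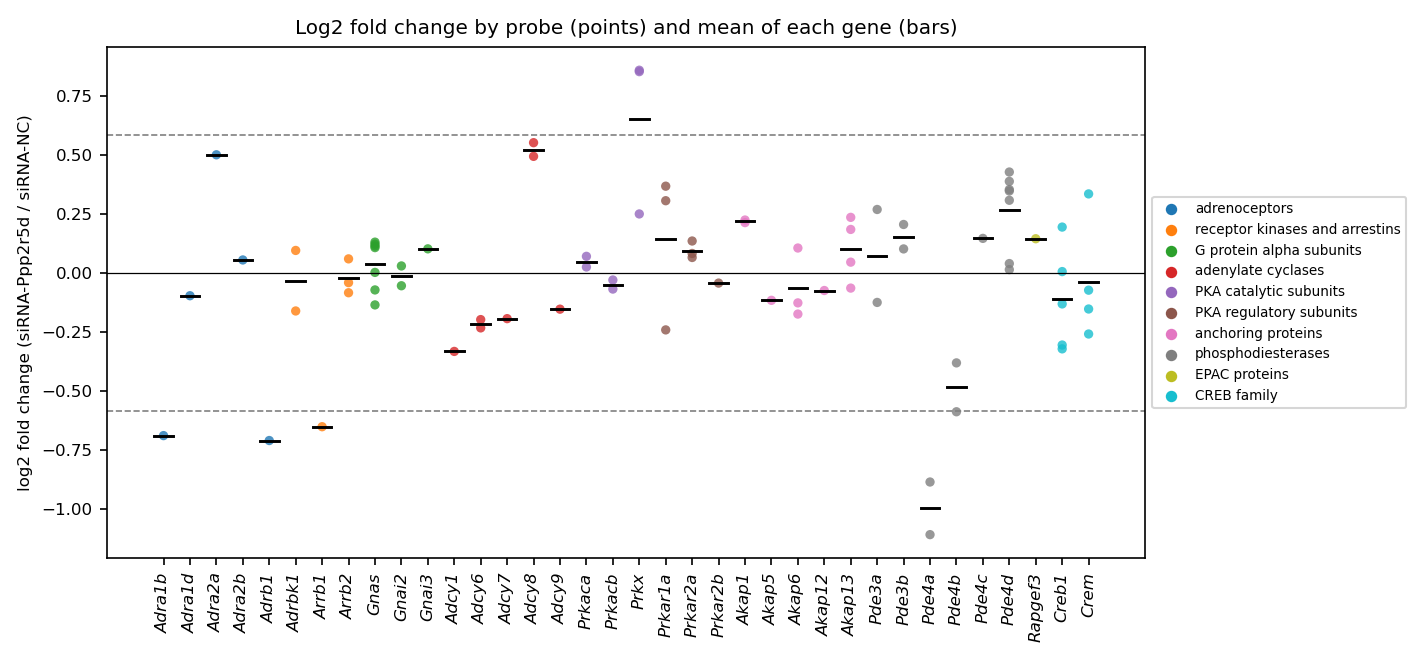
Log2 fold change of siRNA-*Ppp2r5d* over siRNA-NC for each probe well above background on both arrays (points, coloured by role) and their mean per gene (bars), for the 36 genes measured on both arrays. Dashed lines mark 1.5-fold in either direction. The 2 probes of *Pde4a* lie below the lower line, and 2 of the 3 probes of *Prkx* lie above the upper line.

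The phosphodiesterases were all measured on both arrays, and the members of the PDE4 family, which hydrolyse cAMP alone, differed in direction, with *Pde4a* and *Pde4b* below 0 and *Pde4d* above 0 under all alternatives and *Pde4c* above 0 except with scaling to spike-in probes. *Pde4a* was the lowest of the 36 genes measured on both arrays. The probe at chr9:21017591-21017650 had an intensity of 433 with siRNA-NC and 176 with siRNA-*Ppp2r5d*, 2.16-fold lower. The probe at chr9:21015961-21016020 had 126 and 59.7, 1.85-fold lower. The probe at chr9:20997447-20997506 was well above background with siRNA-NC alone, at 27.2 against 9.89, which gives a bound of at least 1.77-fold lower. All 3 probes of *Pde4a* were thus lower on the siRNA-*Ppp2r5d* array. The mean over the probes measured on both arrays was -0.999, short of 2-fold by 0.00103 on the log2 scale, and 215 of 20311 genes, or 1.06%, were further below 0. Over the 10 alternatives it ran from -1.21 to -0.67, and it was past 1.5-fold in each of them and past 2-fold in 3.

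*Pde4b* was lower by less. Its brighter probe had 560 and 326, a log2 fold change of -0.59, and the other had 173 and 116, a log2 fold change of -0.38. A further probe, well above background with siRNA-NC alone, gave a bound of -0.12. The mean of -0.49 was below 0 under every alternative and past 1.5-fold under 2 of them, scaling to spike-in probes and the use of the brightest probe.

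*Pde4d*, the PDE4 gene with the most probes, had a log2 fold change of 0.27, and its 7 measured probes were above 0. They differed in size, without a steady order along the chromosome. The 3 probes at the highest coordinates, chr13:110741493-110741552, chr13:110743427-110743486 and chr13:110745631-110745690, had log2 fold changes of 0.43, 0.39 and 0.31, with intensities of 242 and 284, 357 and 409, and 472 and 511. Those at chr13:110051079-110051138 and chr13:110124590-110124649, tied to other transcripts of the gene, had 0.013 and 0.039. A probe starting at position 110530748 and a dim one at 109910773 had 0.35 each. The mean of *Pde4d* was 0.056 with scaling to spike-in probes, the lowest of the alternatives. *Pde4c* had 26528 and 25698 and a log2 fold change of 0.15, with 1 of 2 probes measured. Genes with intensities from 2048 upwards had a median of 0.11. The value of *Pde4c* was 0.014 with quantile normalization and 0.019 with cyclic loess. Over the alternatives it ran from -0.066 with scaling to spike-in probes to 0.58 without a filter on dim probes.

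The PDE3 genes, whose enzymes are inhibited by cGMP, were near 0. *Pde3a* had a log2 fold change of 0.071 over probes at -0.13 and 0.27, and *Pde3b* had 0.15 over probes at 0.10 and 0.20. A further probe of each was well above background with siRNA-NC alone and gave a bound below 0, of -0.11 for *Pde3a* and -0.19 for *Pde3b*. Of the probes measured on both arrays, those of *Pde3a* thus differed in direction and those of *Pde3b* did not. The bounds come from probes near the lowest signals well above background and do not settle a direction.

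Downstream of cAMP, *Rapgef3*, which encodes EPAC1, had intensities of 2767 and 2677 and a log2 fold change of 0.14. *Rapgef4*, which encodes EPAC2, was not well above background on either array in any of its 4 probes. *Creb1*, the transcription factor that PKA phosphorylates, was the lower of the CREB family, with intensities of 174 and 141 and a log2 fold change of -0.11 over 5 probes from -0.32 to 0.19. *Crem*, a related factor with activator and repressor isoforms, had 142 and 121 and -0.038 over 4 probes from -0.26 to 0.33. The probes of both genes lay on both sides of 0.

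**Figure D3:**
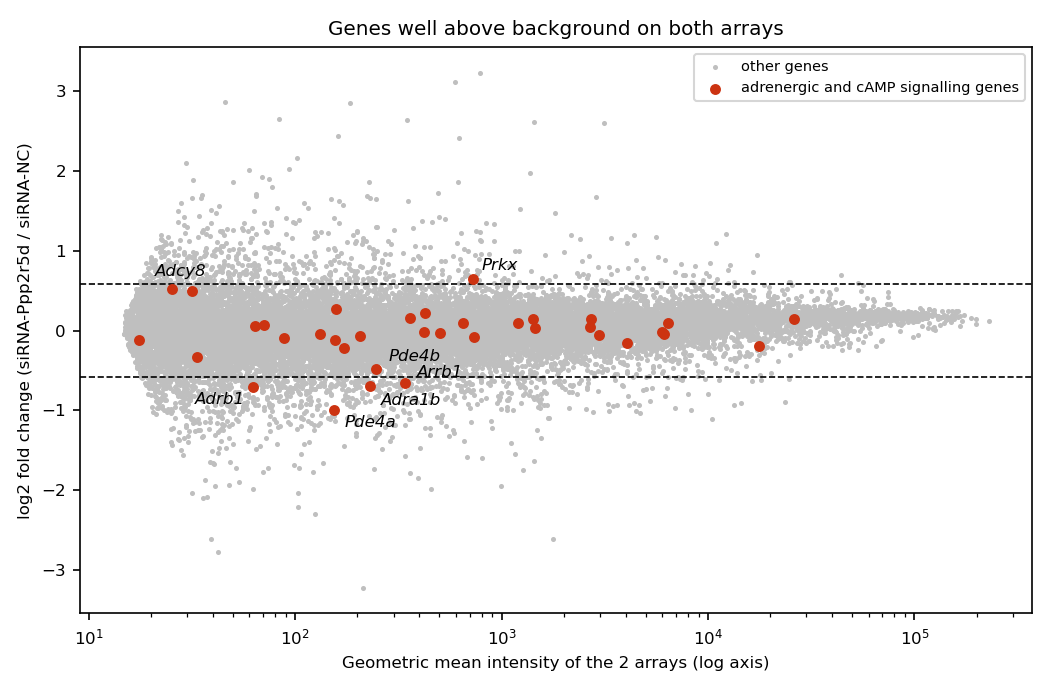
Log2 fold change against the geometric mean intensity of the arrays (log axis) for 20311 genes well above background on both (grey), with the 36 adrenergic and cAMP signalling genes in red and dashed lines at 1.5-fold. The grey points spread most below an intensity of 128, where *Adrb1* lies. They spread less from 128 to 512, where *Adra1b*, *Arrb1* and *Pde4a* lie, and from 512 to 2048, where *Prkx* lies. Of the members only *Prkx* lies above the upper line.

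The probes of a gene give a measure of error within an array. Over the 21 members with several probes measured on both arrays, the SD of the log2 fold change between probes had a median of 0.136, and for 11 of them, or 52.4%, all probes had the same direction. Over 7140 such genes on the array the median SD was 0.120 and the share 59.1%. The spots of a probe printed 10 times differed less, with a median SD of 0.036 over 293 probes, but of 0.163 for the 9 of them with a mean intensity under 128. These SDs cover probes and spots and leave out the spread between cultures. The SD between probes was 0.158 for *Pde4a*, beside its mean of -0.999, and 0.350 for *Prkx*, beside its mean of 0.65, the widest SD of the 21 members. The log2 fold changes of *Adrb1*, *Adra1b* and *Arrb1* were larger in size than the SDs between spots, and each of these genes has 1 probe, so no SD between probes.

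Other genes of the pathway that are not among the 47 were taken from a list of 61 genes, of which 60 are on the array and 52 were measured on both arrays. Their median log2 fold change was 0.11, with 36 above 0 and 16, or 30.8%, below, where 46.0% of all genes were below. When scaled to spike-in probes it was -0.11, with 13 above and 39 below. Of these genes 4, or 7.69%, were past 1.5-fold, where all genes had 9.17%. *Popdc2*, a cAMP-binding membrane protein of heart and muscle, was the highest, with intensities of 27.8 and 46.7 and a log2 fold change of 0.94. *Hcn4*, the cAMP-gated pacemaker channel, followed with 17.3 and 28.8 and 0.92, and *Gng12*, a G protein γ subunit, with 5037 and 6695 and 0.60. *Popdc2* and *Hcn4* were dim on both arrays. *Pde2a*, a phosphodiesterase stimulated by cGMP, was the lowest, with 1565 and 798 and a log2 fold change of -0.78. *Pkia*, an inhibitor of PKA, had 469 and 303 and -0.44, and *Pde1b*, a calmodulin-dependent phosphodiesterase, had 88.0 and 59.5 and -0.37. None of the 52 was past 2-fold, where the share over all genes was 2.44%, at which a list of this size would hold few.

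**Figure D4:**
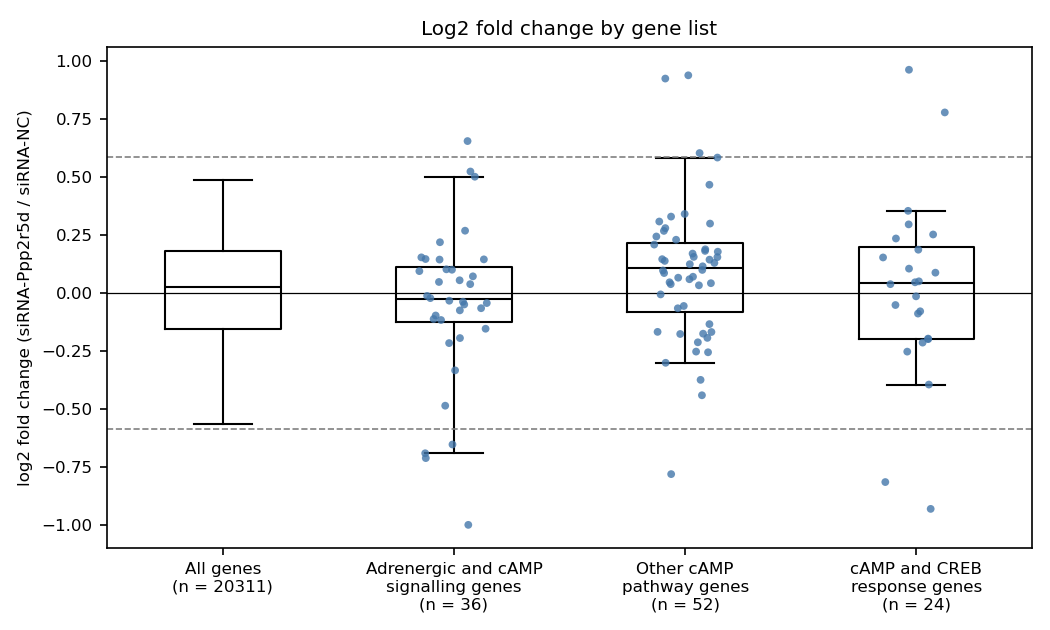
Log2 fold change of all genes measured on both arrays and, as points, of the 36 members, 52 other genes of the pathway and 24 cAMP and CREB response genes. Boxes span the quartiles with the median, whiskers the 5th to 95th percentile, and dashed lines mark 1.5-fold. The medians of the lists, -0.028, 0.11 and 0.042, lie within the box of all genes.

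Genes known to be induced through cAMP and CREB were a further list. Of 30 listed, 25 were detected, and 24 measured on both had a median log2 fold change of 0.042. Of these 13 were above 0 and 11, or 45.8%, below, where 46.0% of all genes were below. The median turned to -0.0073 with quantile normalization, -0.020 with cyclic loess and -0.17 with scaling to spike-in probes. *Areg*, which encodes the growth factor amphiregulin, was the highest, with intensities of 611 and 1041 and a log2 fold change of 0.96. *Npas4*, an activity-dependent transcription factor, had 36.2 and 54.2 and 0.78, and *Ptgs2*, which encodes cyclooxygenase-2, had 14029 and 15692 and 0.35. *Fosb* was the lowest, with 2447 and 1124 and -0.93, *Per2*, a clock gene, had 2099 and 1045 and -0.81, and *Fos*, like *Fosb* a subunit of AP-1, had 9498 and 6326 and -0.39. The 4 genes past 1.5-fold, or 16.0% against 9.17% of all genes, were thus 2 higher and 2 lower, and none was past 2-fold. Many of these genes also respond to other pathways.

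The promoters of the members were searched for the cAMP response element TGACGTCA, which reads the same on both strands, in windows of 300 bases around the gene starts of RefSeq (GRCm38.p6). Of the 32 members matched, 1, *Prkar1a*, held the motif, or 3.13%, where 549 of 27025 genes, or 2.03%, did. It was held by 1 of 51 other genes of the pathway, *Rap1b*, and by 5 of 25 response genes, *Areg*, *Btg2*, *Dusp1*, *Pcsk1* and *Sst*. The shorter motif TGACG, searched on both strands and contained in the longer one, was held by 14 members, or 43.8%, by 29.4% of the other genes of the pathway, by 84.0% of the response genes and by 23.0% of all genes. A gene counted if any of its windows held the motif, so genes with more starts had more chances. Only 32 of the 47 members had a window, so these shares are not compared like for like. *Adra1b*, *Adrb1* and *Pde4a* were matched among the genes past 1.5-fold, and none of these held the full motif. A match is a description of these letters and no measure of binding.

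**Figure D5:**
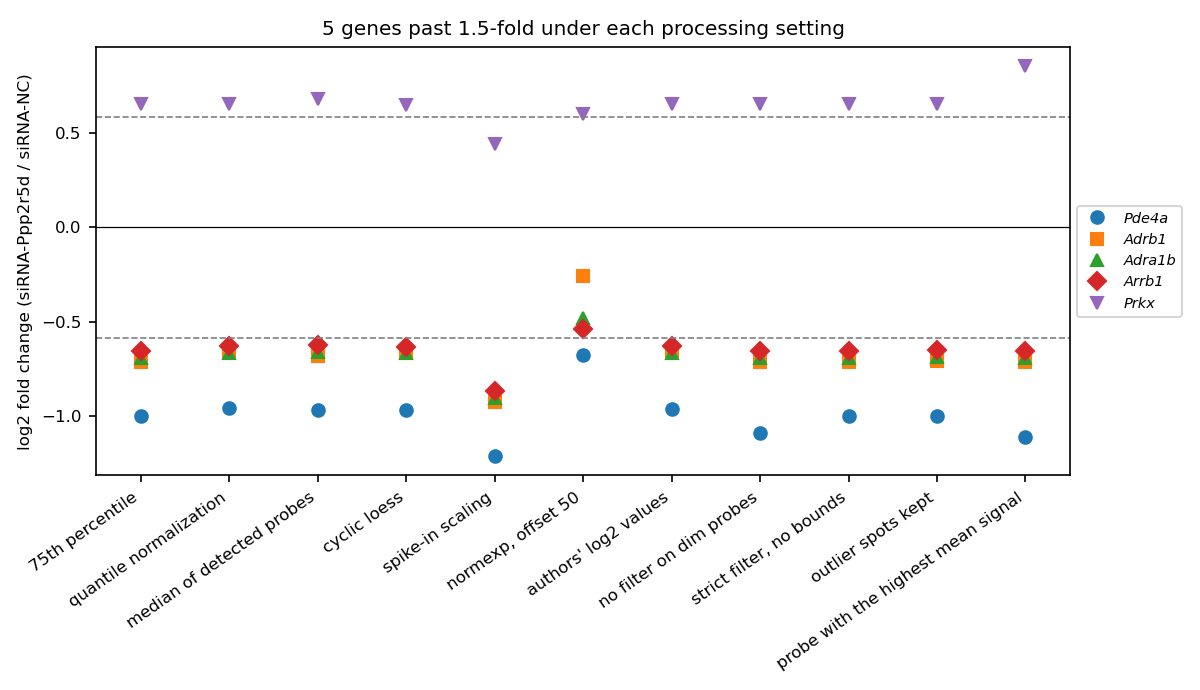
Log2 fold change of the 5 genes past 1.5-fold under the reported setting, the 75th percentile, and 10 alternatives, with dashed lines at 1.5-fold. *Pde4a* stays past 1.5-fold in all of them, *Adrb1*, *Adra1b* and *Arrb1* fall short after normexp correction, and *Prkx* falls short with scaling to spike-in probes.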

How the data were processed

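RNA of 1 MCM sample per condition, siRNA-NC and siRNA-*Ppp2r5d*, was hybridized to 1 one-colour array each. The authors deposited the intensity of every spot from Feature Extraction 10.7.1.1, corrected for background within the array, and a series table of log2 values whose normalization is not given in the sources used here. Those log2 values differed from quantile-normalized intensities by a median of 0.000127.

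Control spots and spots marked as outliers (226 and 188) were left out, spots of a probe were averaged on the log2 scale, and the 75th percentile was subtracted per array. A gene is the mean over its probes well above background on both arrays. A gene detected on 1 array has a bound, for which the dim array was given at least the lowest signal called well above background there. Of 59305 spots, 35544 and 35174 were well above background and 0 were saturated. No test was run, and having 1 array per condition limits precision.

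The members, the lists of other genes and the markers were chosen with earlier results of these data known. Members past 1.5-fold, all adrenoceptors, and the highest and lowest member of each role are named with intensities. Of the other lists, the 3 highest and 3 lowest genes are named. Gene steps were tested on simulated data. R 4.3.3, limma 3.58.1, Python 3.11.15, NumPy 2.4.6, pandas 2.3.3 and matplotlib 3.10.9 were used.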

Additional observations from a re-analysis of the deposited data

How the results depend on the processing

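The alternatives were cyclic loess, quantile normalization, scaling to the median of detected probes or to spike-in probes, normexp correction (offset 50), the authors' log2 values, no filter on dim probes, a stricter filter without bounds, outlier spots kept, and the probe with the highest mean signal. No paired analysis was possible because each condition has 1 array, so no replicate could be left out either.

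The 5 members past 1.5-fold were 2, *Pde4a* and *Prkx*, after normexp correction. The same 5 genes were past 1.5-fold under quantile normalization, cyclic loess, scaling to detected probes, the authors' values, the stricter filter and with outlier spots kept. With scaling to spike-in probes *Pde4b* took the place of *Prkx*. The 0 members past 2-fold became 1, *Pde4a*, with scaling to spike-in probes or the brightest probe of each gene, and 3, *Pde4a*, *Adcy4* and *Adcy5*, without a filter, of which the last 2 are not well above background. The median of the members, -0.028, changed sign to 0.00053 with the median of detected probes and 0.0053 after normexp correction. It was -0.24 with scaling to spike-in probes and -0.065 with the brightest probe. The 4 other genes of the pathway past 1.5-fold became 2 after normexp correction and 2 under the stricter filter. The number of response genes past 1.5-fold stayed within 1.5 times of 4 under every alternative. Of 37 members with a value, 21 kept their sign in every alternative that gave one.

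Over all genes, the 527 past 2-fold became 106 after normexp correction, 304 under the stricter filter, 741 with scaling to spike-in probes and 2043 of 37000 without a filter. The 1985 past 1.5-fold became 617, 1191, 2895 and 5167 in the same order. Among those past 1.5-fold, 58.7% were lower, and 86.1% with scaling to spike-in probes. The cause was not tested, although filters change the number of genes and the offset compresses dim signals by construction.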
